A study of Mus musculus with 53 samples.

Results

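The subject is a group of 10 imprinted genes known for their part in fetal growth: Igf2, H19, Dlk1, Meg3, Cdkn1c, Grb10, Plagl1, Peg3, Mest and Peg10. The genes were taken as a fixed list of symbols and looked up in the annotation of both array types of the series. Of the 10 symbols, 9 had a probe set of their own on each type, so 9 of 19938 genes were measured on the newer arrays and 9 of 18194 on the older ones. H19 was the exception: the newer type had no probe set named for it, and on the older type its only probe set was annotated to H19 and Mir675 together.

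Imprinted genes are expressed mainly from the copy inherited from 1 parent, and many of them set the pace of growth before birth. Igf2 encodes a secreted growth factor that acts through the receptor Igf1r, and its neighbour H19 is a non-coding RNA that is made from the maternal copy and hosts the microRNA miR-675. Dlk1 encodes a membrane protein related to Notch ligands, and its neighbour Meg3 is a non-coding RNA. Cdkn1c encodes the cell cycle inhibitor p57, and Grb10 encodes an adaptor that dampens signals from the insulin and IGF receptors. Plagl1 and Peg3 encode zinc finger proteins, Mest encodes a member of the hydrolase family, and Peg10 derives from a retrotransposon. Transcripts of most of these genes are abundant in fetal tissues, where mesenchyme is a known site of Igf2, Dlk1 and Meg3 RNA, and are known to decline after birth in several organs.

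Total RNA of mouse tissues was hybridised to 53 Affymetrix arrays in 18 groups of 3 arrays, with 2 arrays for the bladder at embryonic day 14.5 (E14.5). Whole cornea at E14.5, E15.5, E17.5 and at postnatal days 3, 7, 14 and 28 (P3 to P28), together with lung and trachea at E18.5, was measured on 27 Gene ST arrays. The older 3′ type, with 26 arrays, was used for dorsal skin and for bladder (each at E14.5, at E16.5 and at E18.5) and for 3 further tissues of E18.5, namely proximal small intestine, esophagus and stomach. All mice were wildtype CB6 per the labels, except that the bladder at E18.5 came from Get1 +/- mice, so its genotype cannot be told apart from its age or its tissue. No treatment was given. The series text says that the data of cornea, bladder and E18.5 skin had been produced for previous work of this laboratory. The titles of skin E14.5 replicates 1 and 2 share a sample identifier, so these arrays may be repeats of 1 sample. Their mean as 1 sample is also used for the count of skin E18.5 against E14.5. It is used as well for Peg10 in bladder against skin at E14.5. Other results count them as 2 arrays. Whether the other arrays of a group stand for separate animals or for pools is not stated in the labels, so the p-values speak for the variation among these arrays, part of which may be technical.

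Start sites of members that moved together after birth are shown here as sequence. RefSeq promoters (assembly GRCm38.p6, from 250 bases before to 50 bases after the start) were found for 7 of the 10 members, with 14 starts in all. None was found for H19, Cdkn1c and Peg10. Each sequence below is written 5′ to 3′ on the strand of the gene, and capitals mark matches of 3 motifs on either strand. The GC box motif was searched with the letters GGGCGG on both strands of every window. The TATA box motif was searched in the same way with the letters TATAAA. The CAAT box motif, also searched on both strands, was spelled CCAAT. A match on the other strand appears as its reverse complement. Igf2 at chr7:142658755-142659054 (minus strand), Grb10 at chr11:12037371-12037670 (minus strand), Peg3 at chr7:6730370-6730669 (minus strand) and Meg3 at chr12:109540746-109541045 (plus strand) are shown as 1 start of each of 4 members.
Igf2 promoter: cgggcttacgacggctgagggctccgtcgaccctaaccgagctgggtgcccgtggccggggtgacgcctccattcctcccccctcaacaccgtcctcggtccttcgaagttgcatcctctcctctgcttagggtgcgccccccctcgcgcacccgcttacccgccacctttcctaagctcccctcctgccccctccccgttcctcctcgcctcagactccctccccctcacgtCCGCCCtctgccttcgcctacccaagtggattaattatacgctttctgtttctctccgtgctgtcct
Grb10 promoter: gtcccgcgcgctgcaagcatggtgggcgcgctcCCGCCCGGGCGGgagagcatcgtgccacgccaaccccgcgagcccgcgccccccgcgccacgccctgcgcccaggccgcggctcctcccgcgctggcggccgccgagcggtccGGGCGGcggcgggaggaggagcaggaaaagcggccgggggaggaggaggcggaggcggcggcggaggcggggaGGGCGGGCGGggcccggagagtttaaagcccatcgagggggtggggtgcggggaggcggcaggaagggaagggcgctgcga
Peg3 promoter: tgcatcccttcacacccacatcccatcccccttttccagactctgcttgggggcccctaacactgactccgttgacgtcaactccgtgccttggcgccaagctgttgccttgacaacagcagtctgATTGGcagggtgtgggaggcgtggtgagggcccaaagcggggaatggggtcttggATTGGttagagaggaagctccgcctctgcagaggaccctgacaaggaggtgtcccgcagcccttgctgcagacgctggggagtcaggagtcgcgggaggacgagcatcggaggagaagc
Meg3 promoter: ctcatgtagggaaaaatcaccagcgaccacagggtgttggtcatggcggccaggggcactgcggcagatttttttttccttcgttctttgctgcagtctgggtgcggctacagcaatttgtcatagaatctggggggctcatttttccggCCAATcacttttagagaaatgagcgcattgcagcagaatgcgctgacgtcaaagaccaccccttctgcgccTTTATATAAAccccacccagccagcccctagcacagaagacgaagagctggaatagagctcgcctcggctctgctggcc
The Grb10 window held 45 CpG pairs, more than 98.1% of 32851 promoters of the same length, and 5 GC box matches, some of which overlap. The Igf2 window held 24 CpG and 1 GC box match. The Peg3 and Meg3 windows held 13 CpG each, with 2 CAAT box matches in the first and, in the second, 1 CAAT box match and 2 overlapping TATA box matches. Across the 14 starts, 7 held a GC box match, 1 a TATA box match and 3 a CAAT box match, beside 35.7%, 13.6% and 37.4% of all promoters. CpG counts at the 14 starts ran from 1 to 45, beside a median of 7 for all promoters. Starts of the same gene also differed, with 45 and 9 CpG for Grb10 and 13 and 1 for Meg3. The range therefore includes spread within a gene and does not compare the members with each other. The Mest windows that begin at chr6:30737800 and chr6:30737803 are nearly the same and are counted apart.

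The miR-675 arms are shown because their host shares the only H19 probe set. Capitals mark the seed, bases 2 to 8, and the seeds of the 2 arms differ. RefSeq places the 5p arm at chr7:142577112-142577133 and the 3p arm at chr7:142577078-142577099 on the minus strand.
mmu-miR-675-5p: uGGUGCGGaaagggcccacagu
mmu-miR-675-3p: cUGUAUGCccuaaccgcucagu

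Levels below are log2(intensity + 16) after quantile normalization within an array type. To be called, a gene needed a change of at least 2-fold together with an adjusted p under 0.05 in limma (Benjamini-Hochberg adjustment over all genes of the type). The tissue labels were checked against their defining markers. The corneal keratin Krt12 had a mean of 5.99 on the cornea arrays of E14.5 and of 13.16 at E15.5, and the lens crystallin Cryaa was at 12.47 at E14.5 and 8.40 at E15.5, so the youngest cornea group lacked a defining marker of its tissue and carried lens transcripts. The arrays labelled lung were at 6.83 for Sftpc, 7.60 for Sftpb and 8.70 for Nkx2-1, the levels of the cornea arrays, while the thymocyte gene Rag1 was at 14.22 against 6.78 in trachea. They are called lung-labelled here. The trachea arrays held the cartilage gene Col2a1 at 13.94, the embryonic muscle gene Myh3 at 13.69 and the liver gene Alb at 12.69. On the 3′ arrays skin, bladder at E18.5, esophagus, stomach and intestine expressed their defining genes Krt10, Upk3a, Krt13, Gkn1 and Fabp2.

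In the cornea all 9 measured members had their lowest mean at P28. At P28, 8 of the 9 measured members were called lower than at E14.5, against 5.54% of all genes called lower and 13.9% called in either direction. The median change of the 9 members was -3.12 on the log2 scale, beside -0.11 for all genes. Arrays of the youngest and the oldest cornea did not overlap for 9 of the 9 members, beside 53.2% of all genes. The size of the fall ran from 4.13-fold for Meg3 to 21.2-fold for Plagl1, and Dlk1 was the member not called. Without replicate 3 of E14.5 Dlk1 was also called (log2 change -1.10, limma adjusted p = 0.00207).

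The growth factor gene Igf2 stood at 12.05, 12.01 and 10.68 on the E14.5 arrays (replicates 1, 2 and 3). It was at 12.33, 12.27 and 12.79 at E17.5, at 12.14, 11.17 and 11.38 at P3, at 9.57, 9.65 and 10.02 at P7 and at 10.03, 10.18 and 10.10 at P14. At P28 the arrays read 8.24, 7.34 and 7.56. The P28 arrays lay below every other cornea array for Igf2, and the P7 and P14 arrays lay below those of P3. Igf2 fell by 3.87 ± 0.29 (SE) between E14.5 and P28, a 14.6-fold difference (limma adjusted p = 3.59e-10, n = 3 and 3). Of the successive steps, P3 to P7 (3.52-fold lower, limma adjusted p = 0.000662) and P14 to P28 (5.24-fold lower, limma adjusted p = 5.34e-06) were called for Igf2.

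Grb10, the brake on insulin and IGF receptor signals, read 10.80, 10.86 and 11.33 at E14.5. The P14 arrays read 9.94, 9.40 and 9.23, and the P28 arrays 6.89, 6.63 and 7.18. The P28 values did not overlap those of any other age. Grb10 fell by 4.10 ± 0.23 from E14.5 (17.2-fold, limma adjusted p = 2.11e-12), and 6.18-fold of this lay between P14 and P28 (limma adjusted p = 3.65e-08). None of its 5 earlier steps was called, and the group means of Grb10 moved from 11.00 to 9.53 over them.

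Cdkn1c, the cell cycle inhibitor, was at 11.22, 11.62 and 10.73 at E14.5 and at 12.00, 11.64 and 12.22 at E17.5. It was at 10.24, 9.96 and 9.75 at P14 and at 8.45, 8.08 and 7.68 at P28. Its levels therefore lay highest around E15.5 to E17.5 and its mean was lower at each later age. The P28 arrays did not overlap those of any other age. The P28 mean was 8.71-fold lower than that of E14.5 (log2 change -3.12 ± 0.22, limma adjusted p = 1.50e-10) and 3.78-fold lower than that of P14 (limma adjusted p = 2.79e-06).

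Plagl1, a zinc finger transcription factor, was at 10.48, 10.94 and 11.57 at E14.5 and at 10.97, 10.99 and 10.97 at P3. At P7 it was at 9.73, 9.64 and 9.82, and at P28 at 7.50, 6.69 and 5.59. The P28 arrays lay below all others but had the widest spread of the 9 members at that age (SD 0.96, n = 3). Plagl1 fell by 4.41 ± 0.36 between E14.5 and P28 (21.2-fold, limma adjusted p = 1.49e-09). The steps from P3 to P7 (2.37-fold lower, limma adjusted p = 0.0395) and from P14 to P28 (6.89-fold lower, limma adjusted p = 1.22e-05) were called.

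Meg3 and Peg3 had their maximum at E15.5, and their courses were alike. Meg3 read 11.08, 11.26 and 9.65 at E14.5, then 11.98, 12.15 and 12.00 at E15.5, 10.17, 11.31 and 11.03 at P14 and 8.83, 8.22 and 8.80 at P28. Peg3 read 11.44, 11.48 and 10.09 at E14.5, then 12.43, 12.18 and 12.28 at E15.5, 11.37, 11.12 and 11.06 at P14 and 8.92, 8.78 and 9.07 at P28. Replicate 3 of E14.5 was the lowest of its group for both genes, by more than 1 log2 unit. From E14.5 to P28 Meg3 fell by 2.05 ± 0.38 (4.13-fold, limma adjusted p = 0.000142) and Peg3 by 2.08 ± 0.25 (4.22-fold, limma adjusted p = 6.00e-07). From P14 to P28 the falls were 4.66-fold (limma adjusted p = 0.000283) and 4.78-fold (limma adjusted p = 1.68e-06), and these steps held most of the decline.

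Mest and Peg10 were called lower at an earlier step than the other members. Mest was at 11.86, 11.63 and 12.09 at E17.5, at 10.40, 10.61 and 10.68 at P3, at 9.83, 9.74 and 9.26 at P14 and at 8.46, 8.61 and 8.68 at P28. Peg10 was at 11.92, 10.24 and 11.67 at E17.5, at 9.24, 9.67 and 9.24 at P3, at 8.75, 8.08 and 7.60 at P14 and at 6.42, 6.93 and 7.00 at P28. Both were called lower at P3, with no overlap with E17.5: Mest by 2.45-fold (limma adjusted p = 0.000984) and Peg10 by 3.73-fold (limma adjusted p = 0.00672). The other members were not called in this step, but all 9 means were lower at P3. Arrays of E17.5 and P3 did not overlap for 6 of the 9 members, beside 25.1% of all genes. From E14.5 to P28 Mest fell by 3.07 ± 0.21 (8.39-fold, limma adjusted p = 8.71e-11) and Peg10 by 4.02 ± 0.42 (16.2-fold, limma adjusted p = 5.11e-08). Their last step, P14 to P28, was at the edge of the limits: 2.04-fold for Mest (limma adjusted p = 0.00175) and 2.56-fold for Peg10 (limma adjusted p = 0.0311).

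Dlk1 varied least across the ages. It was at 9.31, 9.14 and 8.68 at E14.5, at 10.10, 10.14 and 8.94 at E17.5, at 8.48, 8.69 and 8.42 at P14 and at 8.24, 7.99 and 8.12 at P28. The P28 arrays lay below those of the other ages, by little. The change from E14.5 was -0.92 ± 0.25, 1.90-fold, short of the 2-fold limit (limma adjusted p = 0.00411). Against E15.5 and E17.5 the P28 level of Dlk1 was 2.48-fold and 3.04-fold lower and was called (limma adjusted p = 0.000228 and 1.93e-05).

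**Figure D1:**
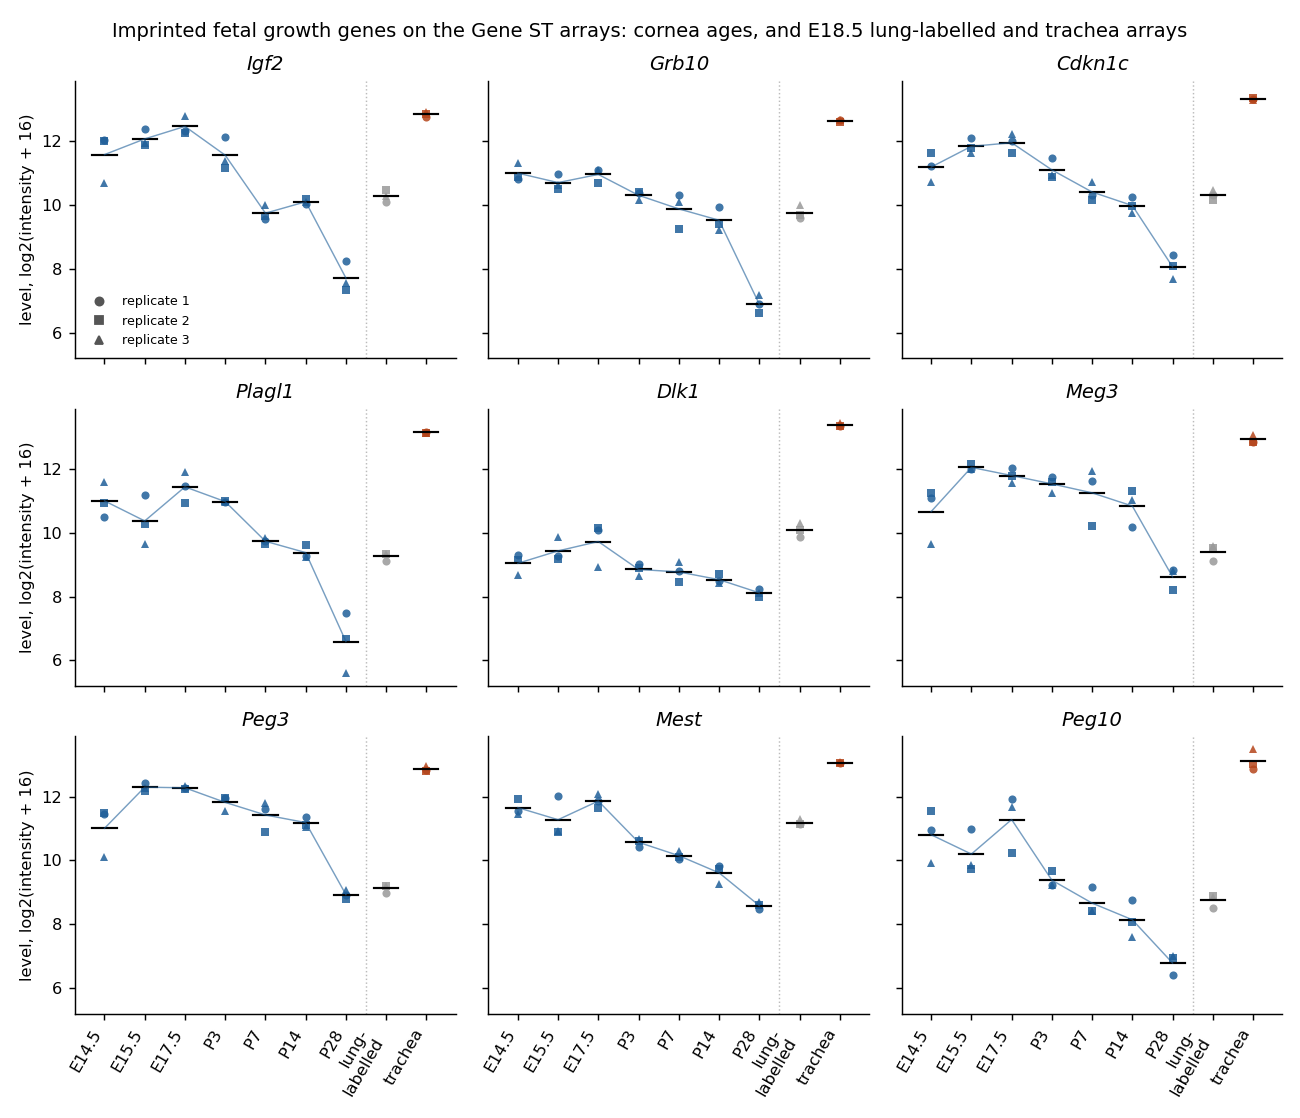
Level of each of the 9 measured genes on every Gene ST array, as log2(intensity + 16) on the vertical axis, by cornea age and for the E18.5 lung-labelled and trachea arrays. Symbols are replicate arrays and bars are means of 3. For each gene the P28 arrays are the lowest of the cornea and the trachea mean is the highest of the 9 groups.

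Over the 7 ages together, 9 of 9 members were called by the moderated F test of limma, beside 21.7% of all genes. The distance between the lowest and the highest age mean was 1.61 log2 units for Dlk1 and between 3.27 and 4.84 for the other 8. The highest mean was at E17.5 for 6 members, at E15.5 for Meg3 and Peg3 and at E14.5 for Grb10. Against E17.5, 9 of 9 members were called lower at P28 (6.51% of all genes lower), by up to 28.7-fold for Plagl1 and 26.9-fold for Igf2. Against E15.5, also 9 of 9 were called lower (5.4% of all genes lower), by 2.48-fold for Dlk1 to 20.5-fold for Igf2. These comparisons share the P28 arrays and are not independent of each other.

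The calls were then counted for each step between neighbouring ages. From E14.5 to E15.5, 2 members were called higher, Meg3 (2.61-fold, limma adjusted p = 0.00875) and Peg3 (2.44-fold, limma adjusted p = 0.000523), beside 5.3% of all genes. Without replicate 3 of E14.5 their log2 changes were 0.88 and 0.83, and 0 members were called. Between E15.5 and E17.5, 0 of 9 were called by limma (0.306% of all genes; 3 members had an unadjusted p under 0.05), and 7 of the 9 means were higher at E17.5. From E17.5 to P3 Mest and Peg10 were called lower (0.978% of all genes lower), and from P3 to P7 Igf2 and Plagl1 (0.557% lower). From P7 to P14, 0 of 9 were called (0.015% of all genes; 1 had an unadjusted p under 0.05).

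The last step was the largest for 6 of the members. From P14 to P28, 8 of 9 were called lower, beside 2.84% of all genes, and the arrays of the 2 ages did not overlap for any member, beside 33% of all genes. The median change was -2.22, beside -0.04 for all genes. Dlk1 was the member not called (log2 change -0.41, limma adjusted p = 0.31). The count was 6 without P14 replicate 1, P14 replicate 2 or P28 replicate 1, when Mest and Peg10 no longer passed, and 7 without P28 replicate 2, when Peg10 did not pass. From P3 to P14, 3 members were called lower (0.461% of all genes lower): Igf2 by 2.75-fold (limma adjusted p = 0.00341), Cdkn1c by 2.17-fold (limma adjusted p = 0.00333) and Plagl1 by 3.03-fold (limma adjusted p = 0.00879). Cdkn1c did not pass without P3 replicate 1 or without P14 replicate 3.

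**Figure D2:**
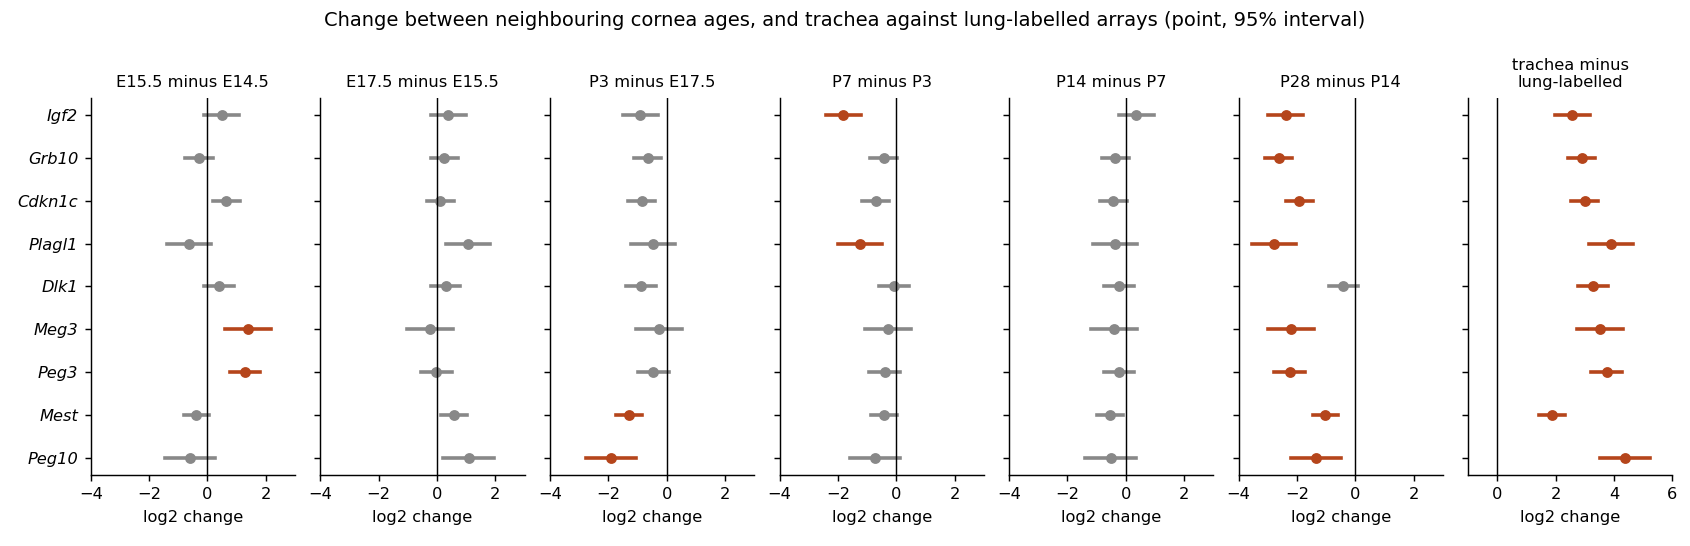
Log2 change of each gene between neighbouring cornea ages and between trachea and lung-labelled arrays, on the horizontal axes, with 95% intervals. Brown marks a called change. In the step from P14 to P28 all genes but Dlk1 are called, and in the steps from E15.5 to E17.5 and from P7 to P14 none is.

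As a description over the 7 age means, which share arrays and normalization, the members had similar courses. The highest values of Pearson's r were 0.997 (Mest and Peg10), 0.997 (Meg3 and Peg3), 0.980 (Igf2 and Cdkn1c) and 0.977 (Grb10 and Plagl1). Other values were close to these, such as 0.966 between Cdkn1c and Grb10, so the members did not form separate pairs. The lowest r among the 9 members was 0.741, between Meg3 and Peg10. The chromosomal neighbours Dlk1 and Meg3 differed in size of change, 1.61 against 3.43 log2 units between their extreme ages. Among 1457 genes above a minimum range, set lower than the range of Igf2, the most like Igf2 in course were Itga8 (r = 0.996), Chst2 (0.993), 2700081O15Rik (0.989), Klf12 (0.987) and Zeb2 (0.986). Their age means spanned 2.31 (2700081O15Rik) to 3.85 (Klf12) log2 units, less than those of Igf2, which ran from 7.71 to 12.46.

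Markers of mesenchyme moved with the members over part of this course. The mean level of a 14-gene mesenchyme list (collagens, Pdgfra, Twist1 and others) was between 8.15 and 9.88 on the E14.5 arrays, between 11.46 and 11.62 at E15.5, between 10.63 and 10.90 at P14 and between 8.91 and 9.24 at P28. The list was low at both E14.5 and P28, and the E14.5 arrays also carried lens and erythroid transcripts. From P14 to P28, 10 of the 14 markers were called lower and 0 higher, and from E15.5 to P28, 13 of 14. Between E14.5 and P28 the same list had 3 markers called higher and 4 lower, with a median change of -0.17. In that comparison 20 of 24 cell cycle genes were lower and 8 of 8 corneal epithelium markers were higher. Erythroid markers also moved with it: the mean of 8 markers was at 10.54, 10.47 and 9.98 at E14.5, at 7.41 to 8.09 at E15.5 and at 7.20 to 7.33 at P28, with 5 called lower and 0 higher between E14.5 and P28. At P14 the erythroid level was 7.25 to 7.39. From E14.5 to E15.5, 12 of the 14 mesenchyme markers were higher. No marker of the mesenchyme list was at 0 on any array. In these bulk samples, fewer cells of a type and less RNA per cell cannot be told apart, and the part of cell composition in the changes was not tested.

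Other tissues also marked single arrays. The 17-gene lens list was at 9.09, 12.12 and 12.14 at E14.5, and at 11.38 and 10.30 on replicate 2 of P14 and of P28. The 9-gene neuron and Schwann list was at 11.38 on replicate 3 of E14.5 and at 9.24 and 9.26 on the others; that array was the lowest of its group for Igf2, Dlk1, Meg3, Cdkn1c, Peg3, Mest and Peg10 and the highest for Grb10 and Plagl1. Skeletal muscle markers were at 11.51, 9.04 and 11.05 at E17.5. Peg10 followed the same order on these 3 arrays, at 11.92, 10.24 and 11.67, with replicate 2 the lowest. Of the other members with E17.5 arrays given above, Igf2, Cdkn1c and Mest were also lowest on replicate 2. These genes were highest on replicate 3, whereas Dlk1 was lowest on replicate 3. The part of these tissues in the values was not tested.

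**Figure D3:**
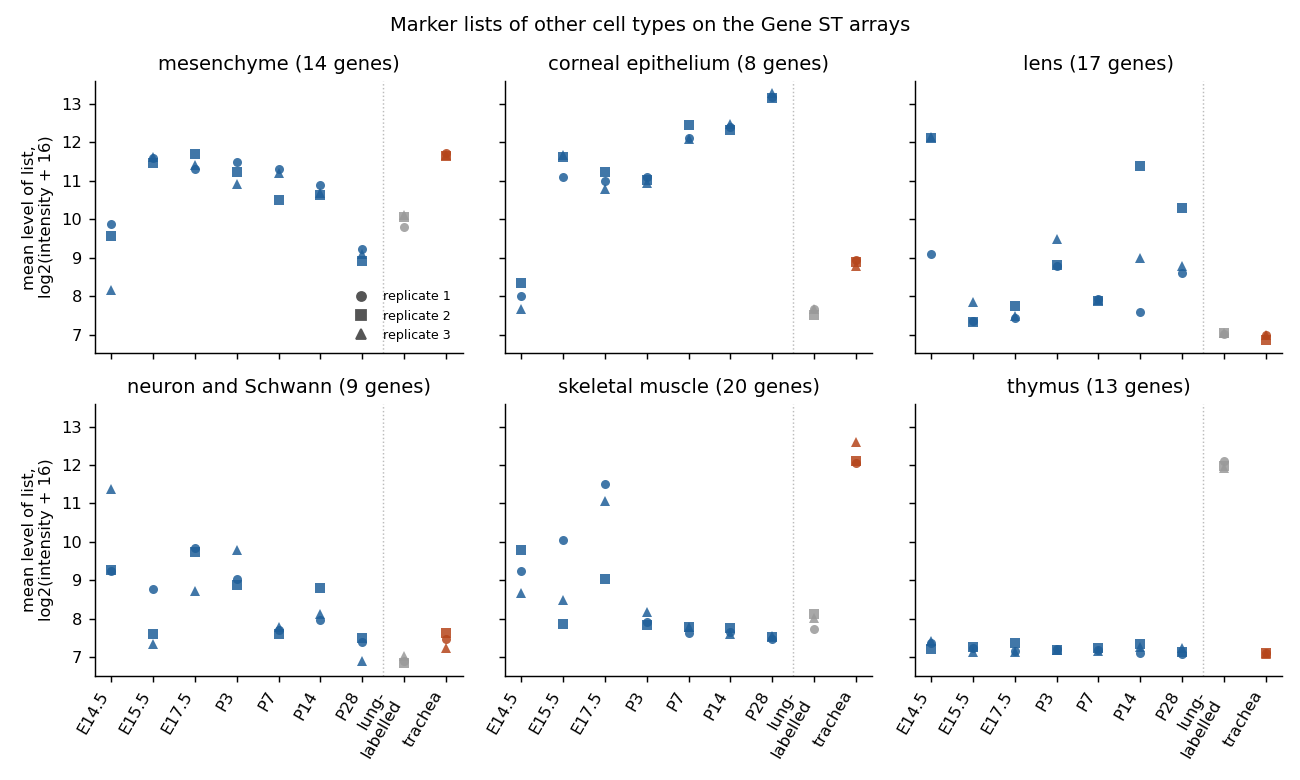
Mean log2(intensity + 16) of marker lists of 6 tissues on every Gene ST array, by cornea age and for the lung-labelled and trachea arrays. Symbols are replicate arrays. Mesenchyme markers are low at E14.5 and P28, lens markers are high on 2 of the 3 E14.5 arrays, and thymus markers are high on the lung-labelled arrays alone.

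Other imprinted genes changed in part in the same direction. Of 45 further imprinted genes measured, 10 were called lower and 4 higher at P28 than at E14.5. Of all genes 5.54% were called lower and 8.4% higher, so the count of higher genes was near the share of all genes. Slc38a4, an amino acid transporter gene, was 18.2-fold lower, Zdbf2 18.1-fold lower and Nnat, neuronatin, 16.8-fold lower, while Rasgrf1, a Ras exchange factor gene, was 22.1-fold higher. The list's genes that lie near a member were then read off, chosen for their position and not for their values. Rian, next to Meg3, was 4.63-fold lower, Zim1 and Usp29, near Peg3, were 2.20-fold and 2.10-fold lower, and Sgce, Ppp1r9a and Asb4, near Peg10, were 3.26-fold, 9.02-fold and 2.57-fold lower. Rtl1, in the cluster of Dlk1 and Meg3, was not called (log2 change -0.09), and neither was Ins2, next to Igf2 (-0.38). Copg2, next to Mest, was 2.23-fold higher. In the cluster of Cdkn1c, Phlda2 (log2 change 0.83) and Nap1l4 (-0.87) changed by less than 2-fold, and Slc22a18 had a log2 change of 0.06.

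Of 23 genes of the IGF system around Igf2, a list which shares Igf2r and Ins2 with the imprinted list, 8 were called lower and 0 higher at P28 than at E14.5. Igf2bp3, an RNA-binding protein of fetal Igf2 transcripts, was 9.13-fold lower, the related ligand gene Igf1 7.04-fold, the binding protein gene Igfbp3 4.23-fold and the adaptor gene Irs1 3.98-fold. The receptors were not called: Igf1r had a log2 change of 0.09, Insr of -0.13 and Igf2r of -0.68. The list's median was -0.22, beside -0.11 for all genes, of which 5.54% were called lower and 8.4% higher.

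Among 12 other fetal growth regulators, a list that shares the Igf2bp genes with the IGF system, 7 were called lower and 0 higher at P28. The same shares of all genes, 5.54% lower and 8.4% higher, stand beside this count. Sox11 was 33.6-fold lower, Igf2bp3 9.13-fold, Igf2bp1 3.79-fold and Lin28b 3.40-fold. Of 6 cyclin-dependent kinase inhibitors, Cdkn1c was called lower while Cdkn1b, the p27 gene, was 3.44-fold higher and Cdkn2b 2.23-fold higher. Among these inhibitors the imprinted Cdkn1c therefore moved against the 2 others that were called.

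In trachea at E18.5 the group was at its highest. Of the 9 members, 9 were called higher than on the lung-labelled arrays, beside 10.8% of all genes called higher and 16.1% in either direction. The arrays did not overlap for any of the 9, beside 60.6% of all genes. The median difference was 3.28, beside -0.06 for all genes. Because the lung-labelled arrays held thymus markers at high levels and lung markers at the level of cornea, the comparison is between trachea and the tissue that was on these arrays.

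Igf2 read 12.76, 12.84 and 12.93 in trachea and 10.09, 10.48 and 10.27 on the lung-labelled arrays, a 5.92-fold difference (limma adjusted p = 1.68e-07, n = 3 and 3). Dlk1 read 13.35, 13.33 and 13.44 against 9.87, 10.09 and 10.32, a 9.71-fold difference (limma adjusted p = 1.82e-10). Dlk1 was thus far above its cornea levels in trachea, where at E17.5 it had reached 10.14 at most. Peg10 read 12.86, 13.03 and 13.49 against 8.52, 8.87 and 8.86, a 20.8-fold difference (limma adjusted p = 9.56e-09). Plagl1 read 13.15, 13.14 and 13.14 against 9.11, 9.33 and 9.34, a 14.7-fold difference (limma adjusted p = 7.77e-09). Mest had the smallest difference of the 9, with 13.06, 13.05 and 13.07 against 11.14, 11.13 and 11.29 (3.67-fold, limma adjusted p = 1.50e-07). The other 4 differed by 7.39-fold (Grb10), 7.99-fold (Cdkn1c), 11.5-fold (Meg3) and 13.4-fold (Peg3), with limma adjusted p between 3.10e-11 and 7.35e-08.

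Trachea was also above the cornea of the nearest age. Against cornea at E17.5, 7 of 9 members were called higher in trachea (9.56% of all genes higher), led by Dlk1 at 12.5-fold and Peg10 at 3.59-fold. Igf2 (log2 difference 0.38, limma adjusted p = 0.279) and Peg3 (0.59, limma adjusted p = 0.0525) were not called. In the order of the 9 group means, trachea stood first for all 9 members and cornea at P28 last. Some end gaps were not called. The lung-labelled arrays were above P28 by 0.19 for Peg3 (limma adjusted p = 0.539, arrays overlapping) and by 0.79 for Meg3 (limma adjusted p = 0.085). Trachea was above cornea at E15.5 by 0.87 for Meg3 (limma adjusted p = 0.054) and by 0.57 for Peg3 (limma adjusted p = 0.0603). For Igf2, neighbours in the order from trachea through E17.5, E15.5 and E14.5 to P3 were not called different. P3 was called above the lung-labelled arrays, the gaps from these to P14 and from P14 to P7 were not called, and P7 was called above P28 (log2 difference 2.03, limma adjusted p = 2.28e-05). For Dlk1 the only called gap between neighbours was that between trachea and the lung-labelled arrays. The trachea arrays came from a dissection that also held cartilage, muscle and liver transcripts: 12 of 12 cartilage, 20 of 20 skeletal muscle and 5 of 8 liver markers were called higher than on the lung-labelled arrays. Mesenchyme markers were higher for 13 and lower for 1 of 14, and cell cycle genes were lower for 23 of 24. The part of these cells in the members' levels was not tested.

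Further imprinted genes followed in trachea: 17 of 45 were called higher and 0 lower than on the lung-labelled arrays, beside 10.8% of all genes higher. Rian was 16.9-fold higher, Zim1 16.6-fold, Zdbf2 13.8-fold and Ndn, necdin, 7.98-fold. Of the IGF system, 9 of 23 were higher and 0 lower, with Igfbp5 24.2-fold, Igfbp4 7.64-fold, Igf1 7.44-fold and the IGFBP protease gene Pappa 7.24-fold higher. Fetal growth regulators were divided: Sox11 was 33.8-fold higher, while Ezh2 (3.22-fold), Lin28b (3.15-fold) and Sox4 (2.21-fold) were lower. Of the kinase inhibitors, Cdkn2d (2.44-fold) and Cdkn1b (2.03-fold) were lower and Cdkn1c was the 1 called higher.

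The 26 arrays of the 3′ type fell into 2 sets that do not follow tissue or age. On the 9 arrays of skin at E16.5, skin at E18.5 and intestine, the ratio of 3′ to 5′ control probe sets was 0.960 to 1.24 for Gapdh and the BioB-3 hybridisation control was at intensities of 61.8 to 173. On the other 17 arrays, of bladder, esophagus, stomach and skin at E14.5, the Gapdh ratio was 2.20 to 13.4 and BioB-3 was at 1343 to 3237. The first principal component of all probe sets, taken before quantile normalization and holding 61.5% of the variance, separated the same sets. The labels give a single protocol for all arrays and name no batch. A comparison across the sets cannot be told apart from the set, so comparisons within a set come first.

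Within the 17-array set, no member was called in bladder against E14.5. Igf2 was at 11.41 and 11.51 at E14.5, at 11.54, 11.63 and 11.34 at E16.5 and at 11.34, 11.37 and 11.17 in the Get1 +/- bladder at E18.5. These values overlapped between E14.5 and E16.5. From E14.5 to E16.5, 0 of 9 members were called, beside 0.341% of all genes (62 genes), with limma adjusted p of 0.638 or more and 0 members with an unadjusted p under 0.05. From E14.5 to E18.5, where genotype also differed, 0 of 9 were called by limma beside 10.5% of all genes, and 3 had an unadjusted p under 0.05. Grb10 (-0.62, limma adjusted p = 0.0354) and Plagl1 (-0.44, limma adjusted p = 0.0401) were lower there by less than 2-fold. Both counts of 0 are near the shares of all genes, so they say nothing particular to the members.

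At E14.5 bladder and skin were on arrays of the same set. Peg10 was at 7.83 and 7.46 in bladder and at 9.58, 9.52 and 8.44 in skin, with no overlap. It was called 2.89-fold lower in bladder (limma adjusted p = 0.0162), 1 of 9 members, beside 8.11% of all genes lower and 14.1% in either direction. These shares are near that of the members, so the count says nothing particular to them. Cdkn1c was 1.56-fold lower, under the limit, at the same adjusted p in limma. The other 7 had limma adjusted p of 0.0681 or more, with intervals for the log2 difference such as -0.61 to 0.11 for Igf2. Skin replicates 1 and 2 of E14.5 carried liver transcripts (mean of 7 markers 10.8 and 10.7, against 4.92 on replicate 3). Peg10 was higher on these 2 arrays than on the third. With the 2 arrays averaged as 1 sample, Peg10 was not called (-1.35, limma adjusted p = 0.0619), so the call rests on counting them apart.

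Among bladder, esophagus and stomach at E18.5, 2 of 9 members were called by the F test, beside 17.3% of all genes. This share is near that of the members, so the count says nothing particular to them. Meg3 was at 11.34, 11.90 and 11.89 in esophagus and at 10.05, 9.89 and 10.90 in stomach, without overlap, 2.70-fold lower in stomach (limma adjusted p = 0.00267; 2.8% of all genes lower). Dlk1 was at 10.04, 10.52 and 11.21 in bladder and at 9.15, 9.26 and 9.22 in stomach, 2.61-fold lower (limma adjusted p = 0.00751), and Meg3 was 2.34-fold lower in stomach than in bladder (limma adjusted p = 0.00575), 2 of 9 beside 4.79% of all genes lower. Between esophagus and bladder 0 of 9 were called by limma, beside 11.2% of all genes, and 1 had an unadjusted p under 0.05. Stomach had the lowest mean of the 3 tissues for every member but Plagl1, though for Grb10 by little (12.48 against 12.53 in bladder). Stomach also had lower mesenchyme markers, with 4 of 14 called lower and 0 higher than in bladder, and their part was not tested. Array quality varied here: bladder replicate 3, stomach replicate 4 and esophagus replicate 4 had Gapdh ratios of 13.4, 8.11 and 5.26. Without these 3 arrays Dlk1 was no longer called (limma adjusted p = 0.161), Meg3 stayed called and Peg10 was called (range 1.31, limma adjusted p = 0.031). With the mean of all probe sets Meg3 was under the 2-fold limit (range 0.80). The E18.5 bladder was Get1 +/- and the other tissues wildtype, so tissue and genotype cannot be told apart in its comparisons.

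Within the 9-array set, skin was compared between E16.5 and E18.5. Some of these arrays carried lung transcripts: the summed intensity of 9 lung markers was 23561 and 20020 on replicates 2 and 3 of E18.5 against 223 on replicate 1, and 6411 on replicate 7 of E16.5 against 334 and 503 on the others. Their part in the values was not tested. Igf2 was at 12.51, 12.48 and 12.45 at E16.5 and at 12.45, 12.32 and 12.24 at E18.5. Dlk1 was at 12.69, 12.76 and 12.62 and then at 12.19, 12.07 and 11.75, without overlap. All 9 means were lower at E18.5, and 0 of 9 members were called by limma, beside 4.44% of all genes, with 3 at an unadjusted p under 0.05. Peg10 had the largest difference (-1.21, limma adjusted p = 0.055), at 5.50, 5.48 and 5.65 and then 4.10, 4.57 and 4.34, close to the floor of 4 that an intensity of 0 gives on this scale. Its call depends on the processing. The next were Dlk1 (-0.69) and Peg3 (-0.61), with limma adjusted p of 0.256 and 0.158. Of 47 other imprinted genes, 4 were called lower and 0 higher in the same step, beside the 4.44% of all genes called in either direction. These 4 were Zim1 (3.32-fold), Asb4 (3.18-fold), Zdbf2 (2.84-fold) and Igf2r (2.24-fold). Counts this small do not set them apart from the members.

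Intestine and skin at E18.5 were compared next. Igf2 was at 12.35, 12.31 and 12.35 in intestine, within the spread of skin, and its log2 difference had an interval of -0.32 to 0.32. By limma 0 of 9 were called, beside 19.2% of all genes, and 2 had an unadjusted p under 0.05. Peg3 was at 9.77, 10.40 and 11.24 in intestine and at 11.87, 10.84 and 11.27 in skin, a difference of -0.86 under the 2-fold limit (limma adjusted p = 0.0155). Dlk1 was at 10.54, 10.81 and 12.60 in intestine. Intestine replicate 4 gave the highest value of its group for Dlk1 and Peg3, and its liver list was at 11.35 against 6.67 and 7.88 on the other arrays. Its mesenchyme list (10.53 against 9.69 and 9.96) and epithelium list (10.6 against 9.04 and 9.22) were also the highest of the group. The part of these tissues in its values was not tested. Without replicate 4 Dlk1 (-1.33, limma adjusted p = 0.000163) and Peg3 (-1.24, limma adjusted p = 0.000204) were called lower in intestine. Peg3 was also called without skin replicate 2 of E18.5 (-1.10). Mesenchyme markers were lower in intestine for 8 of 14. Of the IGF list, 5 were higher and 3 lower of 23, and of 47 other imprinted genes, 8 higher and 7 lower.

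**Figure D4:**
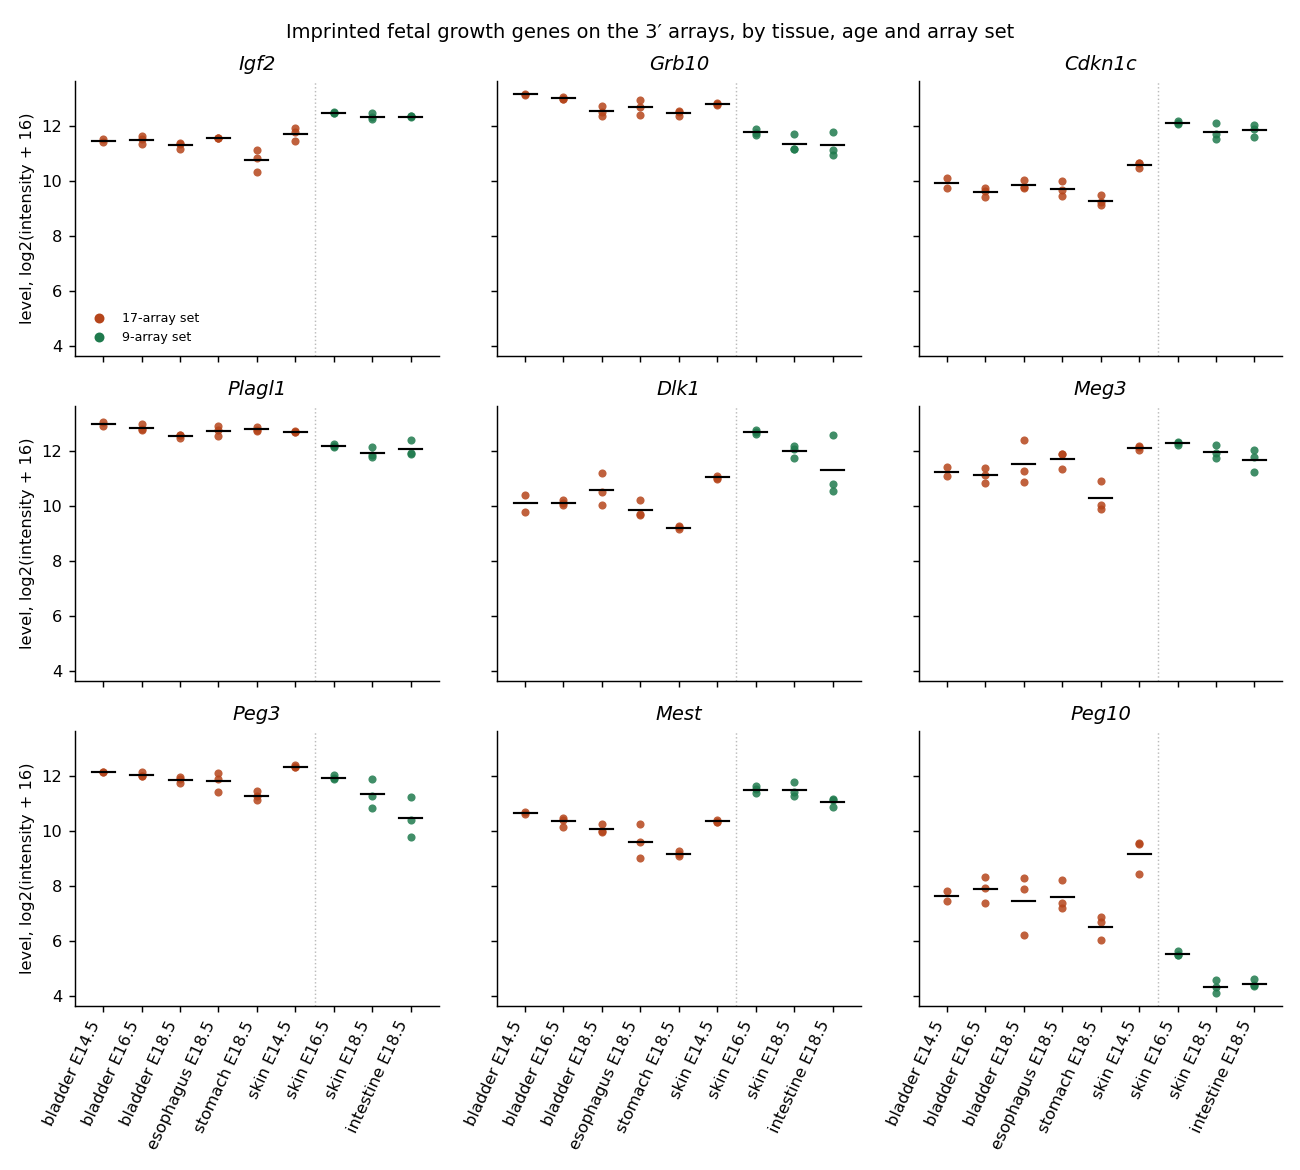
Level of each of the 9 measured genes on every 3′ array, as log2(intensity + 16), by tissue and age. Brown points belong to the 17-array set and green points to the 9-array set, and bars are group means. The arrays of the sets do not overlap for Igf2, Cdkn1c, Grb10, Plagl1, Mest and Peg10.

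Across the sets, from E14.5 to E18.5 in skin, Cdkn1c (2.31-fold) and Mest (2.22-fold) were called higher and Grb10 (2.74-fold), Peg3 (2.02-fold) and Peg10 (28.7-fold) lower, by limma with adjusted p between 1.12e-09 and 0.00235. With skin E14.5 replicates 1 and 2 averaged, 5 were also called. These 5 of 9 stand beside 42.7% of all genes called, a share near that of the members, so the count says nothing particular to them. The Peg3 call was lost with deposited values (-0.66, limma adjusted p = 0.0628) and without skin E14.5 replicate 1, skin E18.5 replicate 2 or skin E18.5 replicate 3. Peg10 was at 4.10 to 4.57 at E18.5, close to the floor of 4, so the size of its fall depends on that floor. Its level at E14.5 was higher on replicates 1 and 2, which carried liver transcripts, than on replicate 3. The part of liver was not tested. Skeletal muscle markers moved with the same comparison, with a mean level of 8.10 to 8.78 at E14.5 and 10.25 to 11.00 at E18.5, and their part in the result was not tested. Igf2 was at 11.92, 11.76 and 11.46 at E14.5 and 0.62 higher at E18.5, under the limit. Further probe sets of the same genes did not bear out all directions: for Grb10 the brightest probe set gave -1.45 and the other 2 gave 4.83 and 3.52, and the mean over probe sets was 2.30. For Peg3 the brightest probe set gave -1.02, the next 2 gave 3.10 and 2.99, and the mean over its 5 probe sets was 0.86. Age cannot be told apart from array set in this comparison. From E14.5 to E16.5, a step that bladder made within 1 array set and skin across both, the change differed between the tissues for 4 of 9 members by the interaction term of limma, beside 42.2% of all genes, again a share near that of the members.

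The probe set shared by H19 and Mir675 is given here for completeness. It was at 12.91 and 13.03 in bladder at E14.5, at 13.05, 13.07 and 12.85 in skin at E14.5 and at 12.97, 12.89 and 12.93 in stomach. On the 9-array set it was at 12.35, 12.37 and 12.41 in skin at E16.5, at 12.26, 12.22 and 12.09 in skin at E18.5 and at 12.45, 12.37 and 12.51 in intestine. Within the 9-array set skin at E18.5 did not overlap skin at E16.5 for this probe set. It was not given to either gene and not counted among the members.

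Over the 5 tissues at E18.5, 8 of 9 members were called by the F test, beside 71.1% of all genes, and Plagl1 was the exception with a range of 0.87. That count also spans both sets. Bladder at E14.5 had the highest mean of Grb10 (13.15) and Plagl1 (12.99), skin at E14.5 those of Peg3 (12.34) and Peg10 (9.18), and skin at E16.5 those of Igf2, Dlk1, Meg3, Cdkn1c and Mest. Stomach had the lowest mean for 5 members. Over the 9 group means of this type the genes most like Igf2, of 8063, were Ago2 (r = 0.967), Cdk4 (0.946), Galnt18 (0.946), Stoml2 (0.944) and Mettl1 (0.942), and these correlations also follow the array set.

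**Figure D5:**
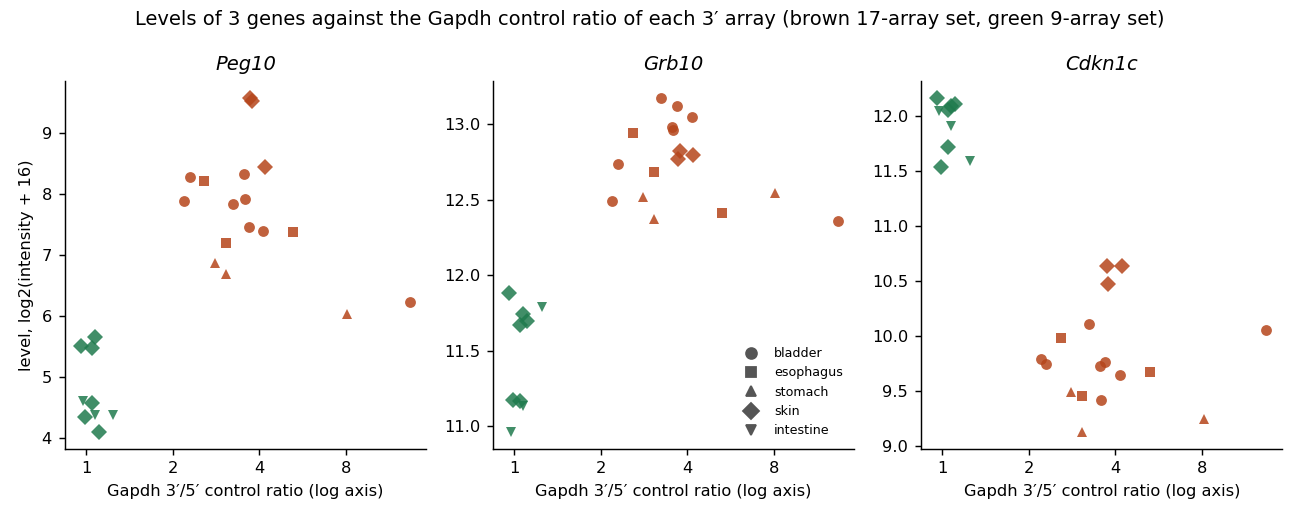
Level of Peg10, Grb10 and Cdkn1c, as log2(intensity + 16), against the ratio of 3′ to 5′ Gapdh control probe sets on each 3′ array (log axis). Colours are the array sets and symbols the tissues. The 9 green arrays have ratios up to 1.24, with low Peg10 and Grb10 and high Cdkn1c, and do not overlap the brown arrays.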

How the data were processed

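Total RNA from 53 mouse tissue samples was hybridised to Affymetrix arrays of 2 types. The deposited values are linear probe set intensities, which per the submitters' processing notes were made with PLIER 2.0. These notes also name Affymetrix Expression Console 1.1.1, and no batch is given. From the deposited intensities each type was processed on its own: log2(value + 16), quantile normalization, probe sets with 1 gene, symbols updated through RefSeq, and the brightest probe set of each gene. Genes were tested with limma 3.58.1 in R 4.3.3 (lmFit, eBayes, Benjamini-Hochberg over all genes), fitted over all groups of a type and checked on simulated data. Calls needed an adjusted p under 0.05 and 2-fold. Members, gene lists and tests were chosen with earlier results of these data known. Genes named outside the members are those of the lists with the largest called changes, receptors and genomic neighbours, and the 5 most correlated with Igf2. The number of arrays limits precision. Same-numbered arrays were compared for some, but not all, of the pairs of groups that share numbers. Of the pairs examined, only cornea P14 and P28 had every correlation of deviations over 0.1 (0.242, 0.133 and 0.134). A replicate block changed no count of members called. Values of one type were not set against the other.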

Additional observations from a re-analysis of the deposited data

Results flagged for a closer look

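The change of 4 members from E14.5 to E16.5 differed between bladder and skin by the interaction term of limma, beside 42.2% of all genes called, a share near that of the 9 members. The bladder change minus the skin change was -1.65 for Dlk1 (adjusted p = 0.0140), -1.87 for Cdkn1c (adjusted p = 3.25e-06), -1.46 for Mest (adjusted p = 0.000434) and 3.87 for Peg10 (adjusted p = 1.74e-05). Without bladder E14.5 replicate 2 Dlk1 was not called (-1.34, adjusted p = 0.0863), and with the mean of all probe sets its value was 0.68. Skin at E14.5 was on arrays of the 17-array set and skin at E16.5 on arrays of the 9-array set, while bladder at both ages was on the 17-array set. Age in skin and array set cannot be told apart in these differences. Skin E14.5 replicates 1 and 2, which may be repeats of 1 sample, were counted as 2 arrays in them.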

How the results depend on the processing

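The alternatives were the values as deposited, other pseudocounts, a filter on dim genes, the mean of all probe sets, a robust fit, a fit of only the 2 groups in question, calls without a fold limit, the array sets fitted alone, a replicate block and leaving out single arrays; the comparisons of P28 with P14, of skin E18.5 with E16.5, of intestine with skin and over the 3 tissues were themselves added after seeing the data. Of the counts of members called, 216 alternatives kept within 1.5 times, 14 were higher and 3 lower. With only the groups compared, 0 members were called for E15.5 against E14.5. With no fold limit the counts were 5 for P14 against P3, 8 for skin E18.5 against E14.5, 1 for intestine against skin and 5 over bladder, esophagus and stomach. With the mean of all probe sets they were 7 for the bladder and skin interaction, 1 for intestine against skin and 1 over the 3 tissues. Skin E18.5 against E16.5 gave 1 member with deposited values, a pseudocount of 1, the dim filter, the mean of probe sets, only the groups compared or the array set on its own. The replicate block gave 8 for P28 against P14 and 8 for P28 against E14.5, as without it.

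Leaving out single arrays gave 8 to 9 members for P28 against E14.5, 6 to 8 for P28 against P14, 0 to 3 for E15.5 against E14.5, 2 to 4 for P14 against P3, 9 to 9 for trachea and for the 7 ages, 0 to 0 for bladder and for skin E18.5 against E16.5, 4 to 5 for skin E18.5 against E14.5, 3 to 4 for the interaction, 0 to 2 for intestine, 8 to 8 for 5 tissues and 2 to 2 for 3 tissues.

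Log2 changes of single members that changed sign were all on the 3′ arrays. For skin E18.5 against E14.5, Meg3 was 0.21 as deposited, and the mean of all probe sets gave -0.76 for Dlk1, 1.50 for Meg3, 2.30 for Grb10 and 0.86 for Peg3. For bladder minus skin, deposited values gave -0.30 for Plagl1 and -0.29 for Peg3, and the mean of probe sets gave 0.68 for Dlk1, -2.94 for Grb10 and -1.36 for Peg3. Peg3 in bladder E16.5 against E14.5 was 0.018 with the mean of probe sets. For intestine against skin, Meg3 was 0.012 and Grb10 0.16 as deposited, and Grb10 was 0.092 with the replicate block. Leaving out single arrays gave -0.0206 to 0.122 for Igf2, -0.300 to 0.317 for Dlk1 and -0.291 to 0.0483 for Meg3 in bladder, -0.147 to 0.0987 for Mest in skin E18.5 against E16.5, and -0.0463 to 0.0571 for Igf2, -0.298 to 0.126 for Grb10, -0.0662 to 0.219 for Cdkn1c, -0.00512 to 0.262 for Plagl1 and -0.00429 to 0.235 for Peg10 in intestine against skin. The cause was not tested.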
